A study of Mus musculus with 15 samples.

Results

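The 10 genes described here have been tied to ageing of hematopoietic stem cells (HSCs), and were followed across HSCs sorted by how much of a division label they had kept: Clu, Selp, Alcam, Aldh1a1, Nupr1, Osmr, Matn4, Gda, Mt1 and Mt2. They were taken by symbol from a table of 31298 gene symbols. All 10 were found and all 10 passed the filter on low values, which left 27994 genes for testing. The mice (hCD34-tTA x TetO-H2BGFP) carried an H2B histone tagged with GFP, the green fluorescent protein, switched on by a transactivator under human CD34 regulatory sequence. Every mouse received doxycycline in its drinking water from an age of 2 to 4 months until harvest. Doxycycline turns the fusion gene off, so that the label already in chromatin is halved with each division. Bone marrow HSCs were sorted as LSK cells (negative for mature lineage markers, positive for Sca1 and c-Kit) that lacked CD48 and Flk2 and carried CD150, and were split by label into 4 bins named GFP4, GFP3, GFP2 and GFP1. The remaining group, Total, is the same sort without the split. Bin numbers are read here as rising with label, which the labels do not state. Each group had 3 libraries, 15 in all. Replicate I came from mice 5 months old after 12 weeks of doxycycline, replicate II from mice of 5.5 months after 14 weeks and replicate III from mice of 6.5 months after 16 weeks. No group held aged mice, so that ageing itself was not compared. Whether a library is 1 mouse or a pool, and whether the groups of one replicate number share mice, is not stated. A p-value here covers only the spread among the libraries of a group. That spread mixes age, weeks of doxycycline, differences between mice and technical differences, which cannot be told apart.

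HSCs of old mice are more numerous than those of young mice, give fewer lymphoid cells and carry a set of transcripts that recurs across studies. Several of the 10 genes belong to that set. Selp, Clu, Nupr1, Gda, Aldh1a1 and Alcam are among those reported higher in old HSCs. Selp encodes P-selectin and Alcam the adhesion molecule CD166. Osmr is a receptor subunit for oncostatin M, and Clu and Matn4 are secreted proteins. The others act inside the cell, in metabolism (Aldh1a1, Gda), in metal binding (Mt1, Mt2) and in the stress response (Nupr1).

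The values are log2 expression after quantile normalization, which gives every library the same distribution, so read depth is unknown and a change in total RNA cannot be seen. Levels are not compared between genes, since it is not stated whether the values were divided by transcript length. Of 9 genes expected in sorted HSCs (Procr, Slamf1, Hlf, Mecom, Fgd5, Hoxb5, Ly6a, Kit and Ptprc), 0 were below a log2 value of 1 in all 3 libraries of any group. Their summed linear level, in ppm (parts in 1000000 of a library's summed linear values), was 3780 to 4400 in GFP4 and 2060 to 2140 in GFP1. Of the genes gated against, Cd48 was 2.02 higher in GFP1 than in GFP4 (SE 0.54, adjusted p = 0.0208) and Flt3 (Flk2) was lower (−0.60, SE 0.14, adjusted p = 0.00373). By limma, 0 of 7 stromal, 0 of 7 macrophage and 0 of 6 neutrophil markers passed in that comparison, and 0 had an unadjusted p under 0.05. In GFP1 minus GFP2, 0 of them passed either, but 2 neutrophil markers had an unadjusted p under 0.05. These were Mpo (2.12 higher, SE 0.59, adjusted p = 0.0586) and Elane (1.98 higher, SE 0.62, adjusted p = 0.0924). Transcripts of all these marker sets were present all the same. Neutrophil markers summed to 1030 to 2740 ppm in GFP4 and 1800 to 3160 ppm in GFP1. Macrophage markers summed to 72.4 to 323 and 65.2 to 651 ppm, and stromal markers to 74.8 to 243 and 107 to 158 ppm. SEs could be wide (1.18 for the macrophage gene C1qa), so large differences could be missed. Quantile normalization fixes the value at each rank, and Igkc stood at the top value (19.12) in GFP1 and Total alike. Immunoglobulin shares are therefore capped and do not give the true load. Immunoglobulin genes held 4.92% to 5.28% of the summed values of GFP1 libraries and 4.34% to 5.5% of those of Total libraries. In the other 9 libraries they held 0.0073% to 0.0737%. For that reason GFP2 was also set against GFP4. The difference itself uses no GFP1 or Total library, but those libraries entered the fit and its estimate of the spread, so a fit without them was added. In these bulk samples, fewer cells of a type and less RNA per cell cannot be told apart.

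**Figure D1:**
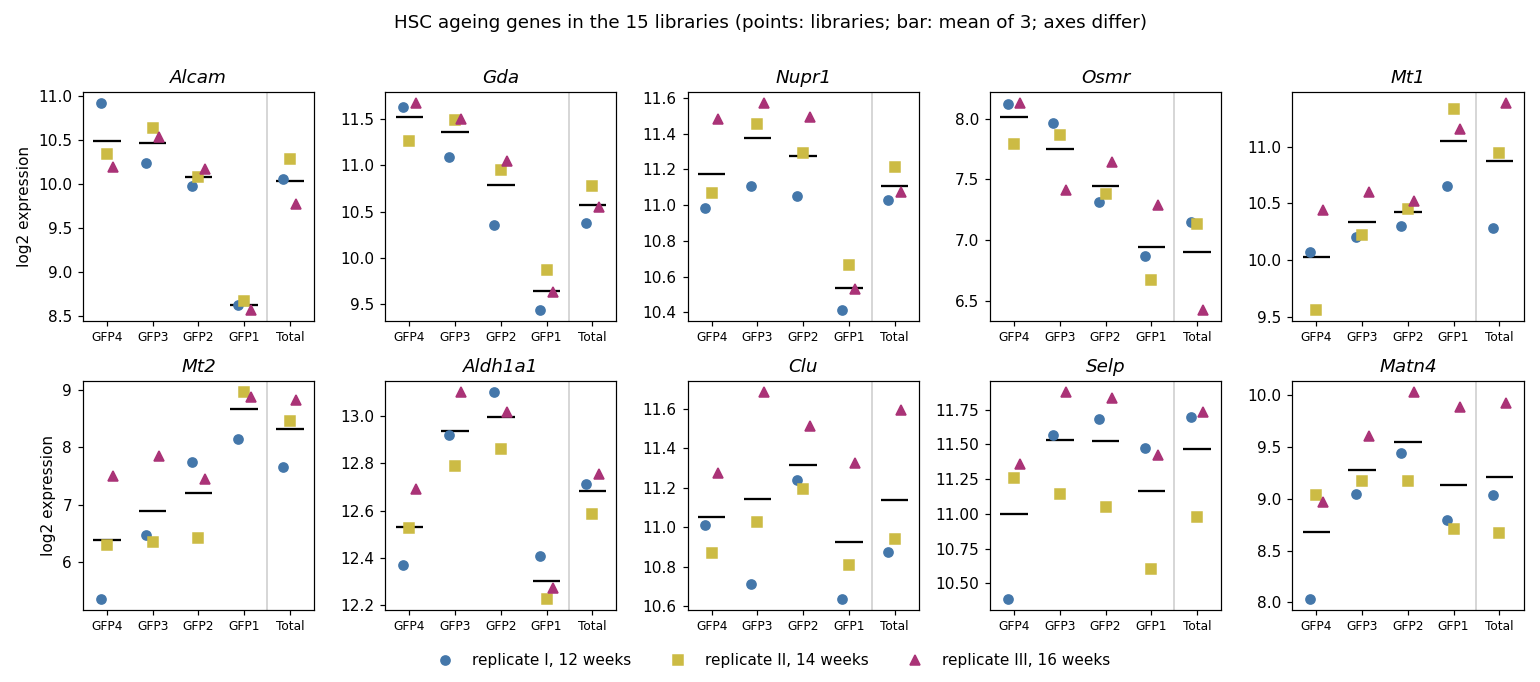
Each panel plots 1 gene, with log2 expression on the vertical axis and the 5 groups on the horizontal axis. Points are single libraries, their shape and colour give the replicate number with its weeks of doxycycline, and the black bar is the mean of 3. Alcam and Gda step down to GFP1, Mt1 and Mt2 are highest in GFP1, Aldh1a1 peaks in GFP3 and GFP2, and for Clu the triangle of 16 weeks is the highest point in every group.

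Between the ends of the label range, GFP1 had less transcript than GFP4 for 4 of the 10 genes and more for 2. Alcam, Gda, Osmr and Nupr1 fell, Mt1 and Mt2 rose, and Clu, Selp, Matn4 and Aldh1a1 did not pass the test. The test was limma's moderated test on all 27994 genes with Benjamini-Hochberg adjustment at 0.05. By it, 10.3% of all genes were lower and 9.27% higher. Of all genes tested, 10337 averaged 10 ppm or more, as did all members but Osmr and Mt2. Fitted on genes of that level alone, a larger share was called in each direction, and Alcam, Gda, Nupr1 and Mt1 kept their calls. The shares over all genes, here and beside the lists below, are thus a low reference for well expressed genes. No count was tested for enrichment. The 10 genes' median difference was −0.178, against −0.0688 over all genes tested. The linear trend over the 4 bins called the same 6 genes in the same directions (4 lower and 2 higher, beside 10.5% and 9.6% of all genes). Fitted without the GFP1 and Total libraries, over GFP4 to GFP2, the trend kept none of those 6 calls, with fewer libraries and larger SEs. That slope gives the middle bin GFP3 no weight, so it is the same test as GFP2 minus GFP4 in that fit, given per bin. The slope per bin was −0.28 for Osmr (SE 0.12, adjusted p = 0.227), against −0.35 over all 4 bins. It was −0.37 for Gda (SE 0.098, adjusted p = 0.0648), against −0.62, and −0.20 for Alcam (SE 0.084, adjusted p = 0.23), against −0.60. For Mt1 it was 0.20 (SE 0.095, adjusted p = 0.335), against 0.31, and for Mt2 0.41 (SE 0.30, adjusted p = 0.603), against 0.71. The slope of Nupr1 changed sign, from −0.20 to 0.051 (SE 0.079, adjusted p = 0.862).

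The adhesion molecule Alcam (chromosome 16, 52248996 to 52454074, GRCm38) had log2 values of 10.93, 10.35 and 10.20 in the GFP4 replicates I, II and III. In GFP3 they were 10.25, 10.64 and 10.54, in GFP2 9.98, 10.09 and 10.18, in GFP1 8.63, 8.67 and 8.57, and in Total 10.06, 10.29 and 9.78. All 3 GFP1 libraries lay below every other library. GFP4 and GFP3 overlapped, GFP2 lay just below both, and Total overlapped these 3 groups. Alcam fell by 1.87 on the log2 scale from GFP4 to GFP1 (SE 0.17, adjusted p = 1.82e-07), a 3.65-fold change. Most of this lay in the last step: GFP1 was 1.46 below GFP2 (−1.46, SE 0.17, adjusted p = 2.65e-05), whereas GFP2 minus GFP4 was −0.41 (SE 0.17, adjusted p = 0.254).

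Selp, the other adhesion gene (chromosome 1, 164115264 to 164150026), behaved differently. P-selectin is best known from platelets and endothelium, where it captures leukocytes. Its values were 10.38, 11.26 and 11.36 in GFP4, 11.57, 11.14 and 11.88 in GFP3, 11.69, 11.05 and 11.83 in GFP2, 11.48, 10.60 and 11.42 in GFP1, and 11.70, 10.97 and 11.73 in Total. The groups overlapped throughout. GFP1 minus GFP4 was 0.17 (SE 0.36, adjusted p = 0.85), with a 95% interval from −0.63 to 0.96, and the sign turned to −0.14 without GFP4 replicate I, the lowest Selp value of the series. Markers of megakaryocytes and platelets, which also express Selp, were higher in GFP1 in 7 of 9 cases, with a summed level of 954 to 1460 ppm against 150 to 160 ppm in GFP4. Endothelial markers went from 63 to 85.4 ppm in GFP4 to 30.3 to 49 ppm in GFP1, and 2 of 7 were lower. The part of either in the Selp values was not tested. From GFP4 to GFP1, 9.27% of all genes rose and 10.3% fell. Of the 5 genes of the selectin and Alcam ligand list, 2 rose and 0 fell. Among them Cd6, the T cell ligand of CD166, was 1.54 higher (SE 0.48, adjusted p = 0.0285), and the selectin ligand gene Selplg did not pass (0.043, SE 0.092, adjusted p = 0.845). The mean log2 value of Cd6 was 6.07 in GFP4, 5.20 in GFP3, 4.77 in GFP2, 7.61 in GFP1 and 7.22 in Total. Cd6 was thus highest in GFP1 and Total, the groups with high immunoglobulin shares, and did not rise over the other bins.

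Osmr (chromosome 15, 6813577 to 6874969) encodes the oncostatin M receptor, which pairs with gp130, the product of Il6st, to signal through JAK and STAT proteins. Its values were 8.12, 7.79 and 8.13 in GFP4, 7.97, 7.87 and 7.41 in GFP3, 7.31, 7.38 and 7.64 in GFP2, 6.87, 6.67 and 7.29 in GFP1, and 7.15, 7.13 and 6.42 in Total. The GFP4 libraries all lay above those of GFP2, GFP1 and Total. GFP3 overlapped GFP4 and GFP2, and GFP1 lay just below GFP2. Osmr fell by 1.07 from GFP4 to GFP1 (SE 0.26, adjusted p = 0.00497), or by 0.35 per bin in the trend (SE 0.082, adjusted p = 0.00359). Neither GFP2 minus GFP4 (−0.57, SE 0.26, adjusted p = 0.317) nor GFP1 minus GFP2 (−0.50, SE 0.26, adjusted p = 0.331) passed alone. Of 16 other genes of oncostatin M and gp130 signalling, GFP1 had 5 lower and 1 higher against GFP4, beside 10.3% and 9.27% of all genes. Their median difference was −0.0935, against −0.0688 over all genes. The related receptor gene Lifr was at 0.090 (SE 0.40, adjusted p = 0.934) and Il31ra, whose product also pairs with that of Osmr, at 2.11 (SE 1.01, adjusted p = 0.186). The lower ones included Jak1 (−0.59, SE 0.087), Il6st (−1.15, SE 0.18), Stat3 (−0.40, SE 0.083) and Socs3 (−0.95, SE 0.30), the feedback inhibitor of the pathway. The ligand gene Osm was the 1 that was higher (1.39, SE 0.25, adjusted p = 0.000392), and it was also higher in GFP2 than in GFP4 (1.19, adjusted p = 0.0082).

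Nupr1 (chromosome 7, 126623249 to 126630861) encodes a small nuclear protein induced by many kinds of cell stress. Its values were 10.98, 11.07 and 11.48 in GFP4, 11.11, 11.45 and 11.57 in GFP3, 11.05, 11.29 and 11.49 in GFP2, 10.41, 10.67 and 10.53 in GFP1, and 11.03, 11.21 and 11.07 in Total. GFP4, GFP3, GFP2 and Total overlapped, and every GFP1 library lay below all of them. Nupr1 fell by 0.64 from GFP4 to GFP1 (SE 0.15, adjusted p = 0.00312) and by 0.74 from GFP2 to GFP1 (SE 0.15, adjusted p = 0.0032). GFP2 minus GFP4 was 0.10 (SE 0.15, adjusted p = 0.869). Nupr1 is one of the genes that respond to ATF4, the main factor of the integrated stress response. Of 10 other genes of that response, 4 fell from GFP4 to GFP1 and 1 rose, beside 10.3% and 9.27% of all genes. Trib3, a pseudokinase that feeds back on ATF4, fell most (−2.78, SE 0.18, adjusted p = 2.79e-09), and it was also lower in GFP2 than in GFP4 (−1.13, adjusted p = 0.000725). Ppp1r15a (−0.53, SE 0.13) and Ddit3 (−0.52, SE 0.13) fell too, whereas the asparagine synthetase gene Asns rose by 0.85 (SE 0.14) and Atf4 itself was at 0.0064 (SE 0.10, adjusted p = 0.987).

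Gda (chromosome 19, 21391307 to 21473445) encodes guanine deaminase, which converts guanine to xanthine. Its values were 11.63, 11.27 and 11.68 in GFP4, 11.09, 11.50 and 11.50 in GFP3, 10.35, 10.95 and 11.05 in GFP2, 9.43, 9.87 and 9.63 in GFP1, and 10.38, 10.78 and 10.55 in Total. The 4 bins stood in bin order by their means, with GFP4 and GFP3 overlapping, GFP3 just above GFP2, and GFP1 below all other libraries. Gda fell by 1.88 from GFP4 to GFP1 (SE 0.18, adjusted p = 6.23e-07), a 3.68-fold change. It also fell by 0.74 from GFP4 to GFP2 (SE 0.18, adjusted p = 0.0245), a call that several alternatives ended. Leaving out GFP4 replicate I gave an adjusted p of 0.112, GFP4 replicate III 0.116 and GFP2 replicate I 0.153. Fitting those groups alone gave 0.0908, dropping the GFP1 and Total libraries 0.0648, and omitting limma's trend and robust prior 0.13. Of 9 other genes of purine breakdown and salvage, 4 fell from GFP4 to GFP1 and 1 rose, beside 10.3% and 9.27% of all genes. Those that fell included Pnp (−0.67, SE 0.12), Xdh, whose product oxidizes xanthine (−1.07, SE 0.20), and Ampd3 (−0.68, SE 0.14). Hprt, which salvages guanine, was 0.48 higher (SE 0.095, adjusted p = 0.000884).

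Aldh1a1 (chromosome 19, 20492715 to 20643465) encodes an aldehyde dehydrogenase that makes retinoic acid from retinaldehyde. Its values were 12.37, 12.53 and 12.69 in GFP4, 12.92, 12.79 and 13.10 in GFP3, 13.10, 12.86 and 13.02 in GFP2, 12.41, 12.22 and 12.27 in GFP1, and 12.71, 12.59 and 12.75 in Total. All 6 libraries of the middle bins lay above all 6 of the end bins and above Total. It was higher in GFP2 than in GFP4 by 0.46 (SE 0.10, adjusted p = 0.0105) and lower in GFP1 than in GFP2 (−0.69, SE 0.10, adjusted p = 0.000262). The ends differed by −0.23 (SE 0.10, adjusted p = 0.146). The first of these calls was lost without GFP4 replicate I (adjusted p = 0.0799), without GFP2 replicate I (adjusted p = 0.0844) and without limma's trend and robust prior (adjusted p = 0.109). About 5.7% of the 31-base words in Aldh1a1 transcripts also occur in transcripts of its paralog Aldh1a7, the largest overlap of any of the 10 genes. Aldh1a7 was 2.37 higher in GFP1 than in GFP4 (SE 0.51, adjusted p = 0.00194), the opposite sign to Aldh1a1. Aldh1a7 values were low, with means of 3.64 in GFP4 and 6.01 in GFP1. Reads in the shared words cannot be told apart, in either direction. Of 8 other aldehyde dehydrogenase genes, 2 were higher in GFP1, Aldh1a7 and Aldh9a1 (0.36, SE 0.091), and 2 lower, Aldh3a2 (−0.40, SE 0.10) and Aldh2 (−0.25, SE 0.076). Over all genes, 9.27% were higher and 10.3% lower.

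The metallothioneins Mt1 and Mt2 encode small cysteine-rich proteins that bind zinc and copper, and both genes lie on chromosome 8, Mt1 at 94179082 to 94180327 and Mt2 at 94172664 to 94173568. Zinc induces them through the factor MTF1, which binds metal response elements. Because they moved together, the 250 bases before each RefSeq start (GRCm38.p6, plus strand) are shown, with matches to the element's core (TGCACNC or TGCGCNC, either strand) in capitals. The stretches are chr8:94178839-94179088 for Mt1 and chr8:94172368-94172617 for Mt2.
Mt1: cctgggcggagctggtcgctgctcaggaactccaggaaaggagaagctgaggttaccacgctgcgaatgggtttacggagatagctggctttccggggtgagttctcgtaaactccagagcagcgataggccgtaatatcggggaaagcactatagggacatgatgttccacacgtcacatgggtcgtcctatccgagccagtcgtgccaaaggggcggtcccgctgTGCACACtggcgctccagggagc
Mt2: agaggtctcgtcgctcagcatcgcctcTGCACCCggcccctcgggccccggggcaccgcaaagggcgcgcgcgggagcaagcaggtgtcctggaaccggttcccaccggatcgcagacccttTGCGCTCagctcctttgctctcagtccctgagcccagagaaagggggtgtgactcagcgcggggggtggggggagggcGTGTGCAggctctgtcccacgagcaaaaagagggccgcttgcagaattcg
Counted with the first 50 transcribed bases as well, the Mt1 window of 300 bases held 3 matches and the Mt2 window 4. At least 1 match stood in 25.7% of 32851 such windows and at least 3 in 1.97%. Of the other members, 7 had entries in the RefSeq table, and Selp was the 1 with a match to the core. No match says only that these letters are not in the window.

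Mt1 had values of 10.07, 9.56 and 10.44 in GFP4, 10.20, 10.22 and 10.60 in GFP3, 10.30, 10.45 and 10.52 in GFP2, 10.65, 11.33 and 11.15 in GFP1, and 10.28, 10.95 and 11.39 in Total. The GFP1 libraries lay above those of all other bins, and Total overlapped every bin. Mt2 had values of 5.36, 6.30 and 7.49 in GFP4, 6.47, 6.35 and 7.84 in GFP3, 7.73, 6.43 and 7.45 in GFP2, 8.14, 8.96 and 8.86 in GFP1, and 7.66, 8.46 and 8.82 in Total. Again GFP1 lay above all libraries of the other bins, while GFP4, GFP3 and GFP2 overlapped and Total lay above GFP4. Mt1 was 1.02 higher in GFP1 than in GFP4 (SE 0.28, adjusted p = 0.0182), and Mt2 was 2.27 higher (SE 0.56, adjusted p = 0.0102). The Mt1 call was lost without GFP4 replicate II (adjusted p = 0.0731), GFP1 replicate II (adjusted p = 0.0721) or GFP1 replicate III (adjusted p = 0.0631), and with the 2 groups fitted alone (adjusted p = 0.0503). From GFP4 to GFP2, in libraries nearly free of immunoglobulin transcripts, neither passed: the difference was 0.40 for Mt1 (SE 0.28, adjusted p = 0.613) and 0.82 for Mt2 (SE 0.56, adjusted p = 0.605). The 10 plasma cell markers summed to 20500 to 27300 ppm in GFP1 and 22000 to 23900 ppm in Total, the groups where both genes were highest, and to 234 to 588 ppm in the other 9 libraries. Their part in the metallothionein result was not tested. No other gene of metallothionein and zinc handling passed in GFP1 against GFP4, of 9 tested. The factor gene Mtf1 was at −0.078 (SE 0.12, adjusted p = 0.766) and its target Slc30a1, a zinc exporter, at −0.39 (SE 0.30, adjusted p = 0.48). By the unadjusted test, Slc30a5 and Slc39a6 would have passed at 0.05. Few sequences are shared with other genes: 0% of the 31-base words of Mt1 transcripts and 0.524% of those of Mt2 occur in transcripts of another gene.

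For the secreted proteins Clu and Matn4, the fit without a replicate block called no difference between bins. Clu (chromosome 14, 65968483 to 65981547) encodes clusterin, an extracellular chaperone that also blocks complement. Its values were 11.01, 10.87 and 11.27 in GFP4, 10.71, 11.02 and 11.69 in GFP3, 11.24, 11.19 and 11.51 in GFP2, 10.63, 10.81 and 11.32 in GFP1, and 10.88, 10.94 and 11.59 in Total. All 5 groups overlapped, with GFP1 minus GFP4 at −0.13 (SE 0.26, adjusted p = 0.837) and a 95% interval from −0.69 to 0.44. That sign turned to 0.015 without GFP1 replicate I. Matn4 (chromosome 2, 164389393 to 164405160), a matrix protein reported to restrain HSC expansion under stress, had values of 8.03, 9.03 and 8.97 in GFP4 and 9.04, 9.17 and 9.60 in GFP3. In GFP2 they were 9.44, 9.17 and 10.03, in GFP1 8.80, 8.71 and 9.89, and in Total 9.04, 8.67 and 9.93. All GFP3 and GFP2 libraries lay above all GFP4 libraries, while GFP1 and Total overlapped every bin. GFP2 minus GFP4 was 0.87 (SE 0.41, adjusted p = 0.361), and GFP1 minus GFP4 was 0.46 (SE 0.41, adjusted p = 0.57), with a 95% interval from −0.43 to 1.34. Of 7 clusterin receptor and complement control genes, Lrp8 was higher in GFP1 (0.46, SE 0.13) and Cr1l lower (−0.33, SE 0.087). Over all genes, 9.27% were higher and 10.3% lower. Of 5 genes of the matrilin and Cxcr4 list, Matn1, a paralog of Matn4 from cartilage, was higher in GFP1 (3.13, SE 0.95, adjusted p = 0.0232). Matn1 was low outside that bin (the lowest value of the series is 0.1375), so the size of its rise is uncertain. Its mean log2 value was 0.95 in GFP4, 1.22 in GFP3, 2.25 in GFP2, 4.08 in GFP1 and 0.96 in Total. Cxcr4 did not pass (−0.46, SE 0.24, adjusted p = 0.236).

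**Figure D2:**
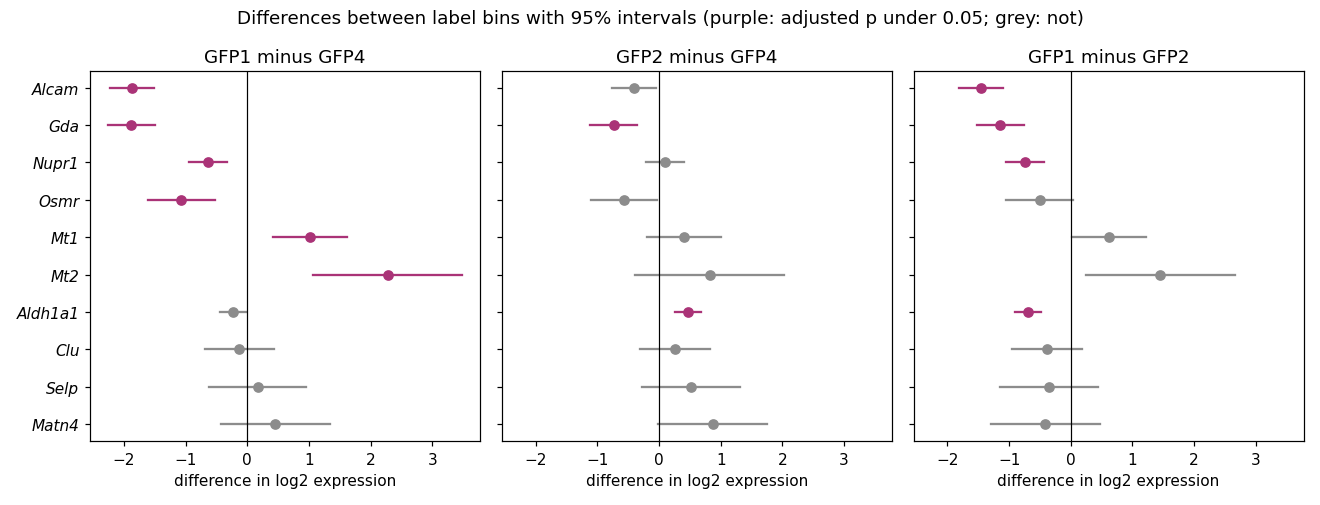
Differences in log2 expression of the 10 genes (points) with limma's unadjusted 95% intervals (lines) for GFP1 minus GFP4, GFP2 minus GFP4 and GFP1 minus GFP2. In purple are adjusted p-values under 0.05: 6 genes in the left panel, Gda and Aldh1a1 in the middle, and Alcam, Gda, Nupr1 and Aldh1a1 on the right.

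Where along the label range the genes changed was read from the other pairs of groups. From GFP4 to GFP2, 1 of the 10 was lower (Gda, beside 1.67% of all genes) and 1 higher (Aldh1a1, beside 2.69%). From GFP2 to GFP1, a comparison added after the values were seen, 4 were lower (Alcam, Aldh1a1, Nupr1 and Gda, beside 4.1% of all genes) and 0 higher (beside 3.06%). The median difference of the 10 genes was 0.331 in the first of these and −0.459 in the second. The 2 comparisons share the GFP2 libraries. From GFP2 to GFP1, 10 of 10 plasma cell markers were higher (median 5.26), beside 3.06% of all genes. Their part in the 4 falls was not tested. With the replicate number as a block, Mt2 was also higher in GFP1 than in GFP2 (1.45, adjusted p = 0.0368, against 0.17 without the block). Fitted with those groups alone, both Mt1 (adjusted p = 0.0346) and Mt2 (adjusted p = 0.0337) passed.

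Total was set against both ends. Osmr (1.11, SE 0.26, adjusted p = 0.00781) and Gda (0.96, SE 0.18, adjusted p = 0.00192) were higher in GFP4 than in Total, 2 of 10 beside 4.7% of all genes. Mt2 was lower (−1.93, SE 0.56, adjusted p = 0.046), 1 of 10 beside 5.29%. That Mt2 call was lost in 10 of the 15 fits that left out 1 library, 4 of them dropping a GFP4 or Total library (adjusted p = 0.116 without Total replicate II, 0.128 without GFP4 replicate II, 0.156 without Total replicate III and 0.169 without GFP4 replicate I). It was also lost with array weights (adjusted p = 0.106), with those groups alone (adjusted p = 0.0728) and without the trend and robust prior (adjusted p = 0.0831). Alcam (−1.42, SE 0.17, adjusted p = 0.00021) and Gda (−0.92, SE 0.18, adjusted p = 0.0121) were lower in GFP1 than in Total, beside 1.41% of all genes, and 0 members were higher, beside 0.318%. Without GFP1 replicate I the Gda call was lost (adjusted p = 0.0648), as it was without GFP1 replicate III (0.0604), without Total replicate II (0.0555) and without the trend and robust prior (0.107). With the replicate block Aldh1a1 (−0.38, adjusted p = 0.0272, against 0.065) and Nupr1 (−0.57, adjusted p = 0.00864, against 0.0543) passed as well. For Osmr, GFP1 minus Total was 0.044 (95% interval −0.50 to 0.59, adjusted p = 0.988), and its sign turned to −0.13 without GFP1 replicate III and to −0.20 without Total replicate III.

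Each group held 1 library at 12, 14 and 16 weeks of doxycycline, from mice of 5, 5.5 and 6.5 months. Age and weeks moved together, and the groups of one number may share mice, so that these differences are described without a test. In all 5 groups Clu, Matn4, Mt1, Nupr1 and Gda were higher at 16 weeks than at 12, which 5.48% of all genes and 9.11% of genes averaging 10 ppm or more also were. None of the 10 was lower in all 5 groups, as 5.14% of all genes were. Asking also for a mean difference of at least 1, 0 of the 10 qualified, beside 1.04% of all genes higher and 1.18% lower.

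By rank, the Clu library at 16 weeks was the highest of its group in all 5 groups, a pattern that 2.47% of the 10337 genes with at least 10 ppm shared. The difference between 16 and 12 weeks was 0.26 in GFP4, 0.97 in GFP3, 0.27 in GFP2, 0.69 in GFP1 and 0.72 in Total (mean 0.58 ± 0.31, SD over 5 groups). For Matn4 it was 0.94, 0.56, 0.59, 1.09 and 0.89 in the same order (mean 0.81 ± 0.23), and the library at 16 weeks was the highest in 4 groups. Mt1 differed by 0.36, 0.40, 0.22, 0.50 and 1.10 (mean 0.52 ± 0.34). Mt2 had the largest mean and the widest spread, 1.02 ± 0.89, from 2.14 in GFP4 to −0.28 in GFP2. Nupr1 (0.31 ± 0.21) and Gda (0.31 ± 0.26) differed less, and in both the library at 12 weeks was usually the lowest (5 of 5 groups for Nupr1, 4 of 5 for Gda). Selp at 14 weeks lay below 16 weeks in all 5 groups and below 12 weeks in 4, and so did Aldh1a1. Alcam (−0.12 ± 0.41) and Osmr (−0.10 ± 0.52) were lower at 16 weeks in some groups and higher in others.

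**Figure D3:**
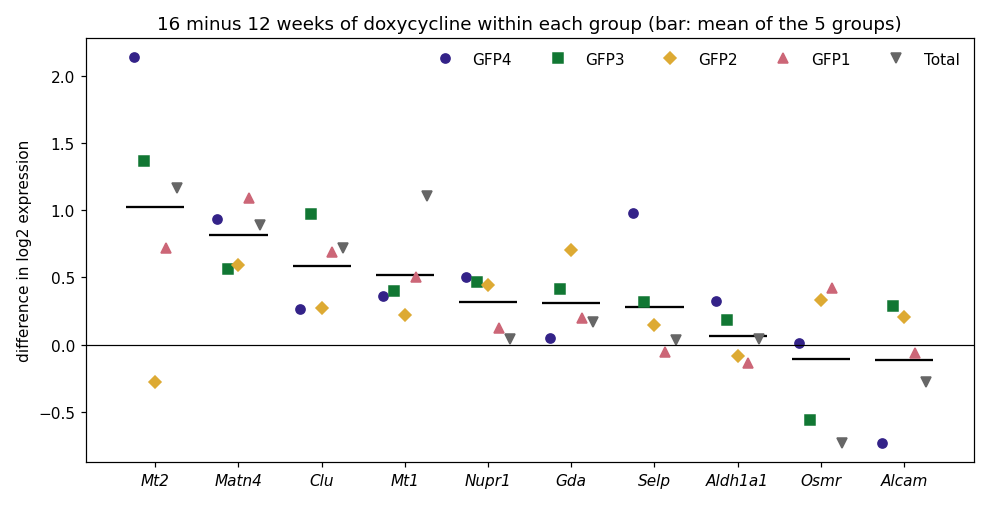
For each gene, the difference in log2 expression between the libraries of 16 and 12 weeks of doxycycline within each of the 5 groups (points, shape and colour by group) and the mean of the 5 (black bar). All 5 points of Matn4, Clu, Mt1, Nupr1 and Gda lie above 0, and those of Aldh1a1, Osmr and Alcam straddle it.

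The 10 genes were set beside 23 other genes reported to rise in HSCs with age. This list was chosen with earlier results of these data known, so its counts are a description and not independent of them. In GFP1 against GFP4, 15 of these 23 were lower and 0 higher, with a median of −0.766, beside 10.3% and 9.27% of all genes. The smallest p belonged to Clec1a, a C-type lectin receptor (−2.13, SE 0.15, adjusted p = 7.05e-09), Plcl1 (−2.19, SE 0.18, adjusted p = 4.1e-08) and the transglutaminase gene Tgm2 (−1.44, SE 0.13, adjusted p = 2.45e-07). Between GFP2 and GFP4, 4 were lower and 0 higher (median −0.234), beside 1.67% and 2.69% of all genes. The 4 were Plcl1, Clec1a, Tgm2 and the netrin receptor gene Neo1. Omitting the GFP1 and Total libraries made that count 5. It was 1 without GFP2 replicate I, 2 without GFP4 replicate II, 2 without GFP4 replicate III and 1 without limma's trend and robust prior. The genes that did not pass in GFP1 against GFP4 include Vwf, the platelet adhesion protein and a marker of platelet-biased HSCs (0.079, SE 0.23, adjusted p = 0.895), and Itgb3 (0.37, SE 0.19, adjusted p = 0.226). HSC marker genes were lower in the same comparison in 7 of 9 cases, with a median of −1.22, and their part in these counts was not tested.

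**Figure D4:**
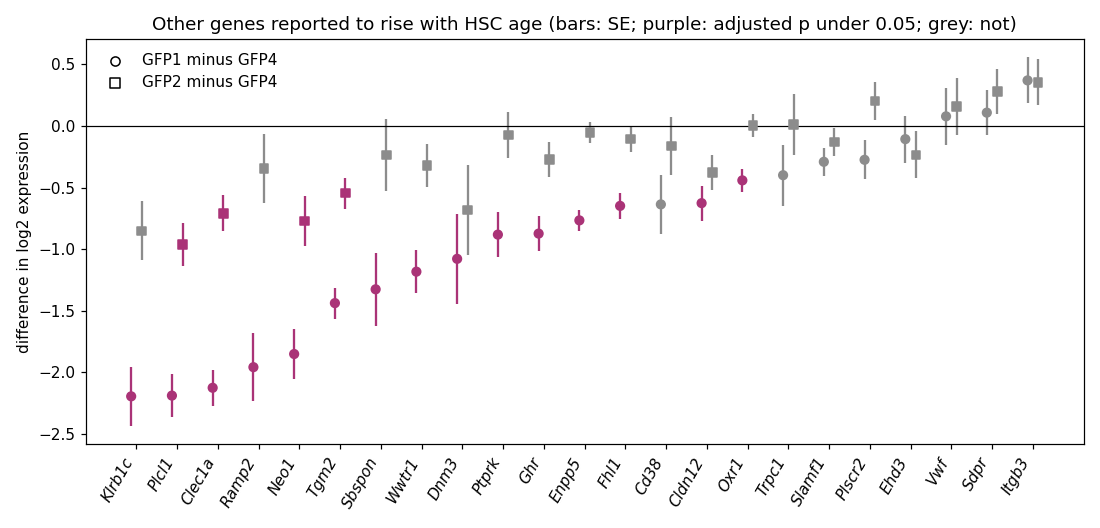
Differences in log2 expression of the 23 other age-associated genes (horizontal axis, sorted by GFP1 minus GFP4), as circles for GFP1 minus GFP4 and squares for GFP2 minus GFP4, with SE bars. Purple marks adjusted p-values under 0.05: 15 circles and 4 squares, all below 0.

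Genes with the most similar profiles were sought among 9880 genes of at least 10 ppm, by Pearson's r over the 15 libraries. These are among the highest of many values and are given as a description: the libraries share 5 groups and 3 replicate numbers. Gda was closest to Prex2, a Rac exchange factor (r = 0.985), and to Hoxa9 (r = 0.984). For Alcam they were Mettl7a1 (r = 0.977) and Rpgrip1 (r = 0.961), for Nupr1 Fkbp1a (r = 0.927), and for Osmr Sgk3 (r = 0.939) and Chic1 (r = 0.932). Mt1 was closest to Ndufb7 and H2afj (both r = 0.972), and Mt2 to Hist1h4i and Exosc1 (both r = 0.936). Aldh1a1 was closest to the ribosomal genes Rplp0 (r = 0.921) and Rps3a1 (r = 0.878). Clu followed Def6 (r = 0.912) and Hist1h3e (r = 0.869). Selp was closest to Clca3a1 (r = 0.88) and Pim2 (r = 0.819), and Matn4 to Clca3a1 and Vldlr (both r = 0.868).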

How the data were processed

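RNA of 15 libraries (5 groups of 3) was amplified from low input with a full-length cDNA kit. The values the authors deposited are on a log2 scale, with gene symbols as rows. The submitters' processing notes list kallisto 0.43.0 and GRCm38. Neither the unit before the logarithm nor the offset is stated there; an offset of 1 was assumed. Sorted columns differed by at most 0.009666 above a log2 value of 6, so the values are quantile normalized. Values entered limma 3.58.1 (R 4.3.3) as deposited. The test took genes whose linear value (2 to the power of the value, minus 1) reached 1 in 3 or more libraries, with 1 mean per group, intensity trend and robust moderation. The fit was tested on simulated data. Deviations from the group means of same-numbered libraries were correlated over 10337 genes. All 3 pairs exceeded 0.1 for GFP2 with GFP1 (0.28 to 0.333) and for GFP1 with Total (0.41 to 0.587), and also for GFP3 with GFP1 (0.187 to 0.381), GFP3 with Total (0.166 to 0.36) and GFP2 with Total (0.201 to 0.228), in all for 21 of 30 single pairs. They did not for GFP4 with any group or for GFP3 with GFP2. Of the pairs of groups compared here, the numbers thus paired for GFP1 minus GFP2 and GFP1 minus Total. All main results, for these pairs and the trend too, nevertheless come from the fit without a block. The blocked fit is given as an alternative. The members and lists were chosen with earlier results of these data known. All 10 members are named, of each list up to 3 genes each way by smallest p (a few others added after their values were seen), and 2 nearest genes per member; a few genes these rules name are not reported here. Lists were matched by symbol (Cavin2 as Sdpr). Alternatives are given at the end.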

Additional observations from a re-analysis of the deposited data

How the results depend on the processing

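Read depth is unknown here and 3 libraries per group limit the precision. Alternatives were the replicate block, other filters, a pseudocount of 0.1, other scalings, array weights, the compared groups alone, limma without its trend and robust prior, and each library left out. GFP1 minus GFP2, and the fits without the GFP1 and Total libraries, were chosen after seeing the data. Of the member results, 518 kept their direction and call under another setting, 14 lost the call and 10 gained it in the same direction, and 6 turned sign; with 1 library left out these were 854, 24, 5 and 17. Among the 6, Nupr1 lost and Aldh1a1 gained a call in the trend. The cause was not tested for any of them.
Without trend and robust prior, 529 genes (0 members) passed in GFP2 minus GFP4 against 1219 (2 members), 1094 in GFP1 minus GFP2 against 2007, 1775 in GFP4 minus Total against 2799, and 130 (1 member) in GFP1 minus Total against 484 (2 members). With the compared groups alone, 1 member passed in GFP2 minus GFP4, 1660 genes in GFP4 minus Total and 89 in GFP1 minus Total. Without the GFP1 and Total libraries, 1 member passed in GFP2 minus GFP4. The trend, there the same test, called 1354 genes and that 1 member (Aldh1a1, 0.23, adjusted p = 0.0125, sign turned). The trend's signs for Clu (0.13) and Nupr1 (0.051) turned too. Array weights turned Clu in GFP4 minus Total (0.0088), and Osmr (−0.068) and Matn4 (0.084) in GFP1 minus Total. In GFP1 minus Total, 4 members passed with the 10 ppm filter and 4 with the replicate block. The replicate block also gave calls for Matn4 in GFP2 minus GFP4 (0.87, adjusted p = 0.0262) and Mt1 in GFP4 minus Total (−0.85, adjusted p = 0.013), groups whose numbers did not pair; beside these and the values in the report it changed no call of a member. Osmr and Mt2 lie under 10 ppm and have no value with that filter.
With 1 library left out, GFP2 minus GFP4 called 534 to 1621 genes and 0 to 2 members, GFP1 minus GFP2 1205 to 2479 genes, GFP4 minus Total 1864 to 2781 genes, and GFP1 minus Total 197 to 563 genes and 1 to 3 members. Signs turned, with no call, within these ranges. For GFP1 minus GFP4 they were −0.33 to 0.015 (Clu) and −0.14 to 0.45 (Selp), and for GFP2 minus GFP4 −0.0053 to 0.25 (Nupr1). For the trend they were −0.081 to 0.022 (Clu) and −0.043 to 0.13 (Selp), and for GFP4 minus Total −0.22 to 0.14 (Clu) and −0.081 to 0.17 (Nupr1). For GFP1 minus Total they were −0.41 to 0.015 (Clu), −0.20 to 0.18 (Osmr), −0.46 to 0.28 (Matn4) and −0.12 to 0.43 (Mt1).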

Other observations

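Pairs of the 10 genes differed in whether they moved together between groups, within groups, or both. Over the 15 libraries Pearson's r was 0.917 for Alcam with Gda, 0.845 for Nupr1 with Gda and 0.853 for Mt1 with Mt2. After the group means were removed, r was 0.443, 0.797 and 0.614, respectively. Selp and Aldh1a1 had r = 0.863 within groups and 0.656 over the 15 libraries, Clu and Matn4 0.744 and 0.715, and Selp and Matn4 0.74 and 0.778. Gda and Mt1 had opposite signs in the 2 measures, −0.566 over the libraries and 0.614 within groups. These are descriptions over libraries that share groups and replicate numbers.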
